A study of Canis lupus familiaris with 12 samples.

Results

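SCD5, the gene of a stearoyl-CoA desaturase, and PPARG, the gene of the lipid-sensing nuclear receptor PPAR gamma, were followed on every array of a comparison of 3 MDCK transfectants with control cells. They are 2 of 4325 genes with a probe annotated to a single gene symbol, and each is represented by 1 of the 13056 probes. Both genes were selected on their log2 ratios over the control on these same arrays, so their levels are described here without a test. MDCK is a dog kidney epithelial cell line. The samples were total RNA of MDCK cells transfected with Snail, with Slug or with E47, and the control in every hybridisation was RNA of the line labelled MDCK-CMV. Of each transfectant there were samples 1 and 2, and either sample went onto 1 array titled Cy5 and 1 titled Cy3 for the transfectant's dye, so that 4 arrays per transfectant and 12 in all were measured. The labels do not state whether a transfectant was 1 clone or a pool of cells, or whether the numbered samples came from separate cultures. The p-values below therefore measure only the spread between these samples, which may be technical.

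Stearoyl-CoA desaturases place a double bond in saturated fatty acyl chains and so make monounsaturated fatty acids such as oleate; vertebrates carry the widely expressed SCD and, in many species, SCD5. PPAR gamma binds fatty acids and their oxidised derivatives, pairs with a retinoid X receptor and switches on genes of lipid uptake and storage; it is best known as the regulator of fat cell formation and is also made in epithelia. CDH1 encodes E-cadherin, which holds epithelial cells together at their junctions. Snail and Slug are zinc finger proteins that repress it, and so does the helix-loop-helix protein E47.

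Values are log2 ratios of the 2 channels. The labels do not say which channel is the numerator, and the deposited signs did not follow the dyes: with the sign as deposited and misplaced rows put back (described next), pairs of arrays of the same transfectant correlated across probes with r between -0.83 and -0.46 in 11 of 18 pairs and between 0.32 and 0.80 in the other 7. Both arrays of Snail 2 and of Slug 1 and the E47 2 array titled Cy5 were multiplied by -1. The 11 negative pairs were those with arrays turned opposite ways, so r was positive in all 18 pairs after turning. Misplaced rows were put back on arrays turned in this way, so these correlations are not an independent test of the turns. The sign of a transfectant as a whole was then taken as the one that puts CDH1 below the control, so a direction against MDCK-CMV is assumed throughout. If a transfectant were turned, higher and lower than the control would exchange in it, with sizes and tests against the control unchanged. Statements that 2 genes lay on the same side or on opposite sides of an array do not depend on any such choice.

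On 5 of the 12 arrays some stretches of rows were out of place in the deposited table. Adjoining stretches had exchanged positions, in whole multiples of 110 rows, and 11.7% of all positions in the table were affected. Duplicate spots of the same clone on the same array made this visible without reference to any other array. For clones with at least 1 spot in such a stretch, duplicates correlated with r between -0.07 and 0.10 as deposited and between 0.79 and 0.90 once the rows were put back. SCD5 was touched on 1 array, E47 1 titled Cy3, where its own row holds 0.43 and the value belonging to it stands 110 rows further on. PPARG was touched on none. The values below have the rows put back, a step chosen after the data were seen. Counts of genes called, the E47 mean of SCD5 and several calls of single genes are also given as deposited. Ranks, SDs, array ranges, counts of genes by side and likeness of profiles are given with rows put back only.

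**Figure D1:**
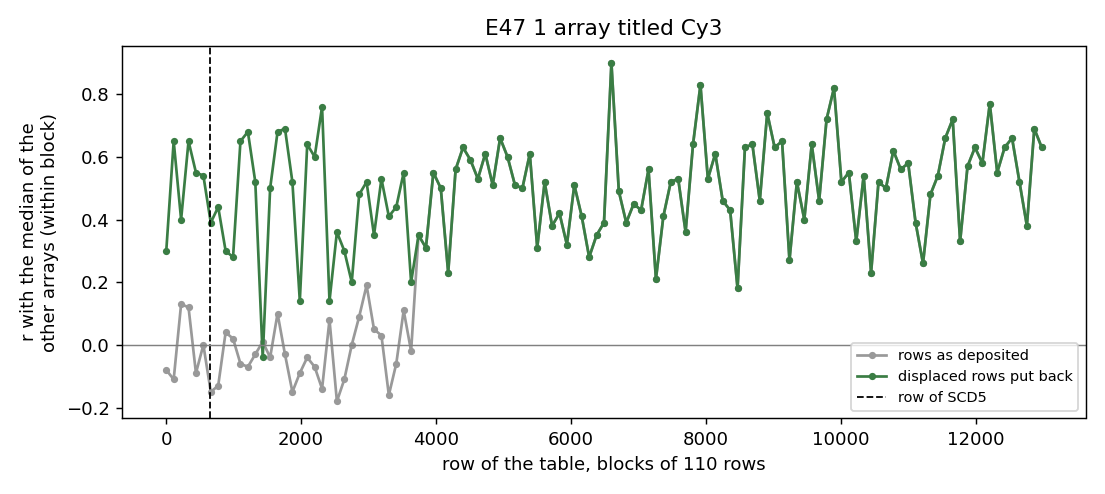
Correlation of the E47 1 array titled Cy3 with the median of the other arrays, within each block of 110 rows, against the row of the table. With rows as deposited (grey) the blocks up to row 3740 lie near 0, and with the displaced rows put back (green) all of them but 1 lie above 0. Blocks were placed by their correlation with the other arrays, so this rise is no independent check of the placement. The dashed line marks the row of SCD5.

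SCD5 stood above MDCK-CMV on all 12 arrays, and in each transfectant it was among the genes farthest above the control. In Snail the log2 ratios were 1.52 and 2.71 in sample 1 (titled Cy5 and Cy3) and 3.59 and 3.82 in sample 2. In Slug they were 1.94 and 2.31 in sample 1 and 2.77 and 2.14 in sample 2. In E47 they were 2.46 and 2.86 in sample 1, the second being the value put back in place of 0.43, and 2.78 and 2.65 in sample 2. With the E47 value put back, the Snail samples bracketed those of both other transfectants, and Snail sample 1 titled Cy5 was the lowest of the 12 arrays.

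The mean log2 ratio of SCD5 was 2.91 ± 1.12 in Snail, a ratio of 7.51, with 1 gene of 3803 farther above the control. It was 2.29 ± 0.23 in Slug, a ratio of 4.89, rank 16 of 4116 genes. It was 2.68 ± 0.04 in E47, a ratio of 6.43, rank 6 of 4017 genes (SD, n = 2 samples each). With rows as deposited the E47 mean was 2.08. The transfectants were not set against each other by a test for this gene. The mean differences were 0.62 for Snail minus Slug and 0.22 for Snail minus E47, both smaller than the SD of the Snail samples, and arrays overlapped in all 3 pairs. For Slug minus E47 the difference was -0.39, and the 2 Slug samples lay below the 2 E47 samples. With rows as deposited the order was reversed, the E47 mean of 2.08 lying below the Slug mean of 2.29. The order of Slug and E47 and the small SD of E47 therefore rest on the put-back value.

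PPARG lay below MDCK-CMV on all 8 Snail and Slug arrays and above it on all 4 E47 arrays. In Snail the log2 ratios were -1.34 and -0.67 in sample 1 (titled Cy5 and Cy3) and -1.49 and -1.15 in sample 2. In Slug they were -0.90 and -0.67 in sample 1 and -0.57 and -0.49 in sample 2. In E47 they were 0.45 and 0.49 in sample 1 and 0.54 and 0.32 in sample 2. No E47 array came near the range of the other transfectants, whereas the arrays of Snail and Slug overlapped.

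The mean was -1.16 ± 0.22 in Snail, 2.23-fold below the control and 46th from the lowest of 3803 genes. It was -0.66 ± 0.18 in Slug, 1.58-fold below the control, and 0.45 ± 0.03 in E47, 1.37-fold above it (SD, n = 2 samples each). Snail minus E47 came to -1.61 and Slug minus E47 to -1.11, each larger than the SD of either group, and Snail minus Slug to -0.50. If the sign of E47 were turned, the first of these would be -0.71 and the second -0.21; if that of Slug were turned, Snail minus Slug would be -1.82. No such difference was tested for PPARG. Because RNA of whole cultures was measured, fewer expressing cells and less RNA per cell cannot be told apart for any gene here.

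**Figure D2:**
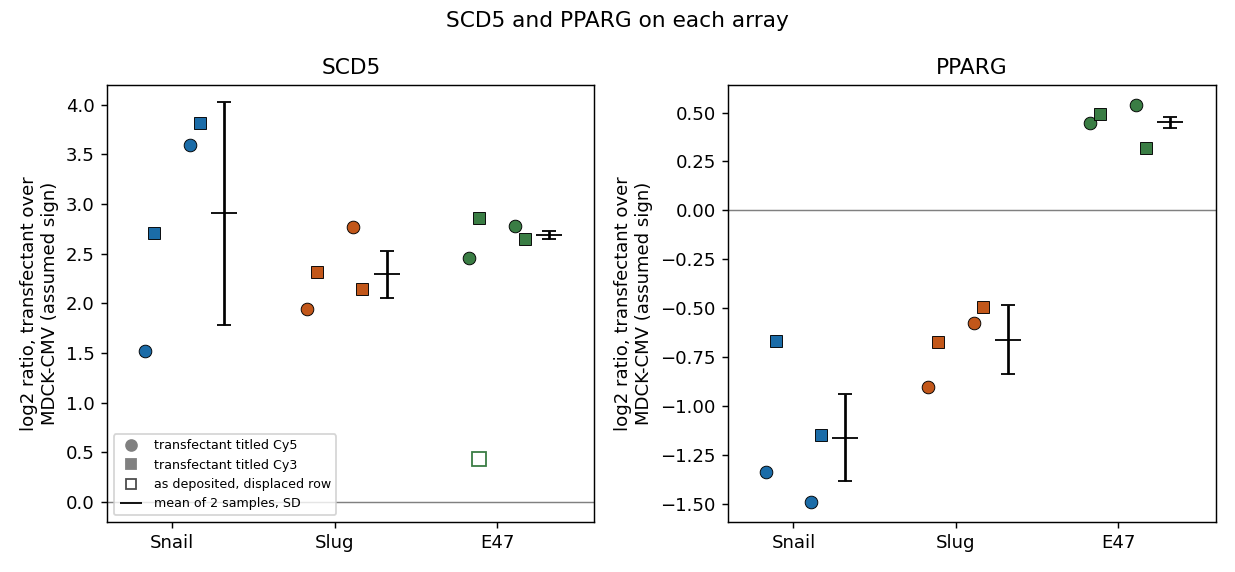
Log2 ratio of transfectant over MDCK-CMV, with the assumed sign, for SCD5 (left) and PPARG (right); circles are arrays with the transfectant titled Cy5, squares those titled Cy3, and black bars the mean and SD of 2 samples. SCD5 lies above 0 on every array, from 1.52 to 3.82, with the open square showing the value 0.43 of its displaced row, and PPARG lies below 0 in Snail and Slug and above 0 in E47.

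The relation between both genes can be read without turning any array. SCD5 and PPARG lay on opposite sides on 8 of 8 Snail and Slug arrays and on the same side on 4 of 4 E47 arrays. CDH1, whose mean log2 ratio was -2.29 in Snail, -2.36 in Slug and -2.41 in E47 after its sign was fixed, lay opposite to SCD5 on all 12 arrays. It lay on the same side as PPARG on the 8 Snail and Slug arrays and opposite to it on the 4 E47 arrays. Among 3657 genes with values on every array, 26 (0.711%, PPARG included) were below the control on all 8 Snail and Slug arrays and above it on all 4 E47 arrays. For comparison, 126 (3.45%, SCD5 included) were above it on all 12.

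**Figure D3:**
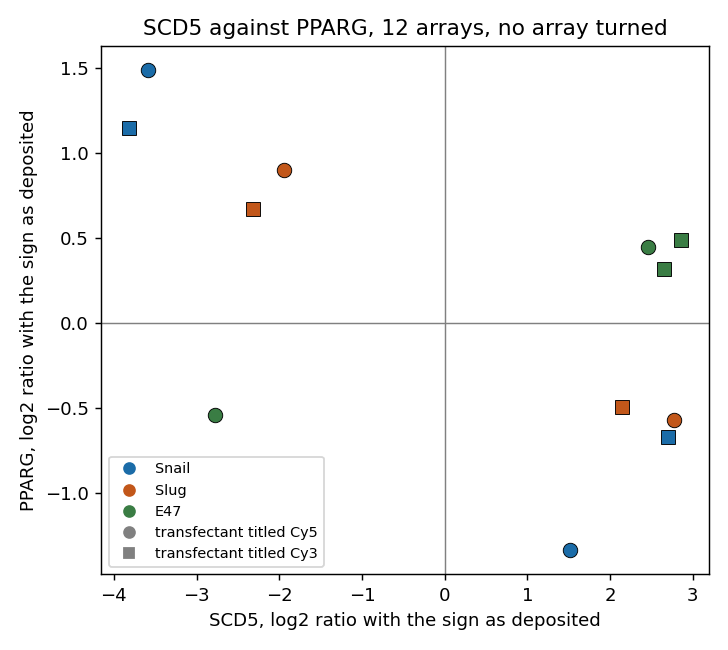
PPARG against SCD5 on the 12 arrays, both as log2 ratios with the sign as deposited and rows put back; colours mark the transfectant and shapes the dye. The 8 Snail and Slug arrays lie to the upper left and lower right, where the genes have opposite signs, and the 4 E47 arrays lie to the upper right and lower left.

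SCD, the other stearoyl-CoA desaturase, went the opposite way to SCD5. It is represented by 1 clone with 2 spots, and 5 of its 24 spot values lay in displaced stretches. The gene's log2 ratios were -0.82 and -0.96 in Snail sample 1 (titled Cy5 and Cy3) and -1.47 and -1.18 in sample 2. In Slug they were -1.77 and -2.09 in sample 1 and -2.05 and -1.88 in sample 2, and in E47 they were -0.15 and -0.15 in sample 1 and -0.56 and -0.46 in sample 2. With rows put back, SCD and SCD5 lay on opposite sides on all 12 arrays. The ranges of SCD in the 3 transfectants did not overlap once its 2 spots were averaged. Single spots of Slug and Snail did overlap. The spots of Slug 1 titled Cy5 read -2.21 and -1.33, the second from a displaced stretch, where a Snail spot reached -1.48.

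Against the control SCD fell by 1.11 in Snail (SE 0.14, adjusted p = 0.00125) and fell by 1.95 in Slug (SE 0.14, adjusted p = 2.79e-05) on the log2 scale, in limma with Benjamini-Hochberg adjustment over all genes tested. In E47 the mean was -0.33 (SE 0.14, adjusted p = 0.164), which did not pass. Slug minus E47 was -1.62 (adjusted p = 0.00286) and Snail minus Slug 0.84 (adjusted p = 0.0116). Snail minus E47 was -0.78 (adjusted p = 0.0354). With rows as deposited the adjusted p was 0.064 for Snail against the control, 0.286 for Slug minus E47, 0.646 for Snail minus Slug and 0.392 for Snail minus E47. Snail minus Slug also missed the threshold without Slug 1 (adjusted p = 0.0577), without Slug 2 (0.0648) and on arrays titled Cy5 alone (0.0993). With arrays scaled to 1 spread it was 0.47 (adjusted p = 0.129). Snail minus E47 missed it without Snail 2 (0.11), E47 1 (0.195), E47 2 (0.0825) or either Slug sample (0.0603). Whether dog transcripts of one desaturase bound to the clone of the other was not tested.

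The other desaturases measured did not pass the test in any transfectant. FADS1, the delta-5 desaturase of polyunsaturated fatty acids, averaged 0.18 in Snail, 0.20 in Slug and 0.23 in E47, with adjusted p of 0.266, 0.157 and 0.205. It lay above the control on all 12 arrays, between 0.04 and 0.42. Of the 71 lipid-list genes with values on every array, 2 shared this side with SCD5 throughout, FADS1 and RXRG, another retinoid X receptor. Among all 3657 genes with values on every array 126 (3.45%, SCD5 included) did so. FADS2, the delta-6 desaturase, averaged -0.15, 0.15 and 0.11, with adjusted p of 0.504, 0.405 and 0.676. RXRA, a retinoid X receptor that partners PPAR gamma, averaged 0.02, 0.09 and 0.08, with adjusted p of 0.916, 0.577 and 0.733. FASN, PPARA and PPARD are not analysed here.

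**Figure D4:**
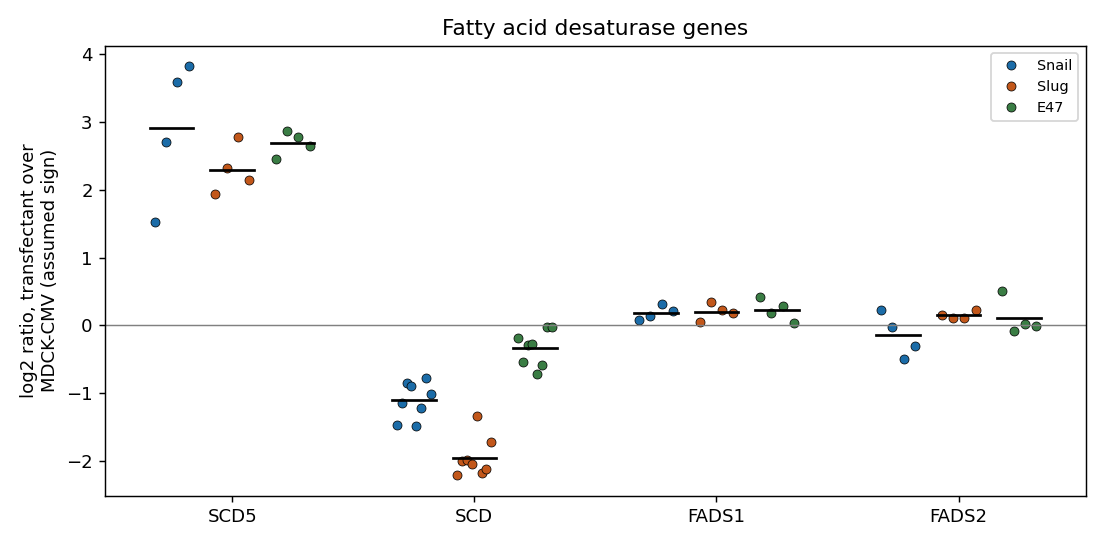
Log2 ratio of transfectant over MDCK-CMV, with the assumed sign, for 4 desaturase genes; each point is 1 array, except for SCD, where each point is 1 of 2 spots on an array, and lines are means. SCD5 lies above 0 and SCD below 0 in all 3 transfectants; FADS1 lies above 0 by at most 0.42, and FADS2 lies on both sides of 0 in Snail and E47.

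Around both genes, 76 genes on 8 lists of lipid metabolism were on the array under a single symbol, of 275 listed. In Snail, 16 of 71 tested lipid genes passed the adjusted p of 0.05, 4 higher and 12 lower (22.5%, against 19.1% of all 3803 genes, 6.57% higher and 12.5% lower). In Slug, 33 of 75 passed, 14 higher and 19 lower (44%, against 41.9% of 4116, 22.6% higher and 19.3% lower). In E47, 7 of 72 passed, 5 higher and 2 lower (9.72%, against 13.7% of 4017, 8.22% higher and 5.45% lower). Each share is near that of all genes. The median log2 ratio of the lipid genes was -0.09 in Snail, -0.11 in Slug and 0.07 in E47, where that of all genes was -0.05, 0.02 and 0.00. The Snail count was 5 without Snail 2, the Slug count 21 without Slug 1 and 18 without Slug 2, and the E47 count 0 without E47 2 and 13 without either Snail sample.

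**Figure D5:**
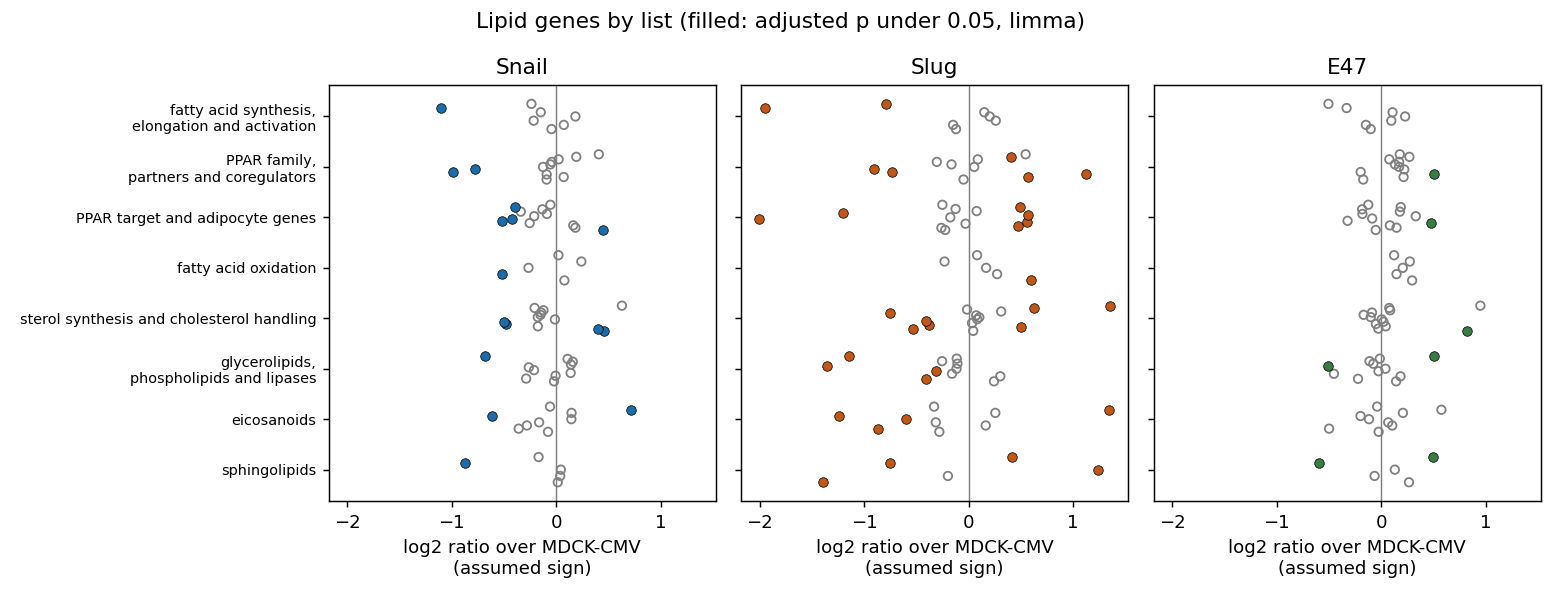
Log2 ratio over MDCK-CMV, with the assumed sign, of the lipid genes of each list in Snail, Slug and E47; each point is 1 gene and filled points passed an adjusted p of 0.05 in limma. Filled points lie on both sides of 0 in every transfectant, and there are 16 in Snail, 33 in Slug and 7 in E47.

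Among 7 other genes of fatty acid synthesis, elongation and activation, only SCD passed in Snail, SCD and THRSP in Slug and none in E47. Of all genes 19.1%, 41.9% and 13.7% passed in Snail, Slug and E47. The list's median log2 ratio in E47 was -0.10. THRSP, a nuclear protein that promotes lipogenic gene expression, averaged -0.79 in Slug (SE 0.15, adjusted p = 0.00296). This call did not hold without Slug 2 (adjusted p = 0.0692), and with rows as deposited the mean was 0.05.

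Among 11 genes of PPAR partners and coregulators, 2 passed in Snail, 5 in Slug and 1 in E47, against 19.1%, 41.9% and 13.7% of all genes. HDAC3, the deacetylase of the corepressor complex that nuclear receptors recruit, fell by 0.99 in Snail (SE 0.12, adjusted p = 0.00101) and fell by 0.73 in Slug (adjusted p = 0.00139), and averaged -0.195 in E47, which did not pass. It was below the control on all 12 arrays, at -1.02, -1.22, -0.81 and -0.91 in Snail, -0.87, -0.86, -0.70 and -0.49 in Slug and -0.11, -0.31, -0.07 and -0.29 in E47. So were 185 of the 3657 genes with values on every array (5.06%). Of 71 lipid-list genes 7 did so, with HDAC3, SPTLC1 and SCD among them. EP300, an acetyltransferase that serves as a coactivator, rose by 1.12 in Slug (SE 0.11, adjusted p = 1e-04), with 0.87, 1.28, 1.34 and 0.99 on its arrays. It was higher in Slug than in Snail, with a Snail minus Slug difference of -1.21 (adjusted p = 0.000889).

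Among 3657 genes with values on every array, 26 (0.711%, PPARG included) had PPARG's sides throughout. With rows put back, KLF4, a zinc finger factor of epithelial differentiation, was the only lipid-list gene of 71 that did so. Its log2 ratios were -0.24, -0.33, -1.47 and -1.05 in Snail, -1.17, -0.92, -0.96 and -0.57 in Slug, and 0.15, 0.17, 0.22 and 0.35 in E47. It fell by 0.77 in Snail (SE 0.20, adjusted p = 0.0289) and fell by 0.91 in Slug (SE 0.20, adjusted p = 0.00642), and the E47 mean did not pass. The adjusted p was 0.294 in Snail without Snail 2, 0.0508 there without either E47 sample, and 0.0975 in Slug without Slug 1. As deposited it was 0.266 in Snail and 0.794 in Slug. The Slug mean of KLF4 was then -0.16, and its Slug arrays no longer all lay below the control.

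PPAR target and adipocyte genes went both ways. In Snail 4 of 12 passed, in Slug 6 of 13 and in E47 1 of 12, against 19.1%, 41.9% and 13.7% of all genes. FABP3, a fatty acid binding protein, had -2.18, -2.02, -1.92 and -1.91 on the Slug arrays, and fell by 2.01 (SE 0.11, adjusted p = 7.65e-06). Its values lay between -0.70 and -0.28 on the Snail arrays and between -0.45 and -0.10 on those of E47, with no overlap with Slug. Snail minus Slug was 1.48 (adjusted p = 0.000447) and Slug minus E47 -1.69 (adjusted p = 0.00113). PLIN2, the coat protein of lipid droplets, had -1.76, -0.87, -1.01 and -1.16 on the Slug arrays and fell there by 1.20 (SE 0.13, adjusted p = 0.000166). In the same cells PCK2, the mitochondrial phosphoenolpyruvate carboxykinase, averaged 0.57 (adjusted p = 0.00231), UCP2, a mitochondrial carrier, 0.49 (adjusted p = 0.0105), and FABP1, the liver fatty acid binding protein, 0.56 (adjusted p = 0.00286). UCP2 read -0.20, 1.01, 0.76 and 0.39 on the Slug arrays, so 1 array lay below the control. On arrays titled Cy5 alone its mean was 0.28 (adjusted p = 0.426). Without Slug 2 these 3 calls were lost, with adjusted p of 0.0622 for PCK2, 0.164 for UCP2 and 0.0574 for FABP1. UCP2 also missed the threshold without Slug 1 (adjusted p = 0.0654), and PCK2 with rows as deposited (0.153).

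Of 14 genes of sterol synthesis and cholesterol handling, 4 of 12 tested passed in Snail, 7 of 14 in Slug and 1 of 12 in E47. The shares of all genes that passed were 19.1%, 41.9% and 13.7%. ABCA1, the exporter of cellular cholesterol, was the E47 gene, with 0.90, 0.50, 1.102 and 0.80 on its arrays and a mean of 0.82 (SE 0.11, adjusted p = 0.00215; 0.0726 without E47 2). In Slug, SREBF2, the transcription factor of the cholesterol synthesis genes, averaged 0.63 (SE 0.10, adjusted p = 0.00134; 0.0837 as deposited). NPC2, which carries cholesterol out of lysosomes, fell there by 0.75 (SE 0.12, adjusted p = 0.00246).

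Of 11 tested genes of glycerolipids, phospholipids and lipases, 4 were lower and none higher in Slug, and of 9 eicosanoid genes 3 were lower and 1 higher, where 19.3% of all genes were lower and 22.6% higher. The calls of CHKA, a choline kinase, and LIPG, the endothelial lipase, were lost without Slug 1 (adjusted p = 0.255 and 0.189) or Slug 2 (0.0738 and 0.351), and LIPG also without either E47 sample (0.056). As deposited CHKA was at -0.17 (adjusted p = 0.50) and LIPG at 0.22 (0.507). The call of PTGES, a prostaglandin E synthase, missed the threshold without Slug 2 (0.107). PLA2G4A, the cytosolic phospholipase that frees arachidonate, fell by 1.35 in Slug (SE 0.12, adjusted p = 8.07e-05). PTGES3, a cochaperone with prostaglandin E synthase activity, fell by 1.24 (adjusted p = 0.000125) and LTA4H, the leukotriene A4 hydrolase, fell by 0.87 (adjusted p = 0.00159). PTGIS, the prostacyclin synthase, rose by 1.35 in Slug (SE 0.18, adjusted p = 0.000456), with values between 1.20 and 1.68 on the 4 arrays.

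PLA2G7, a secreted phospholipase that cleaves platelet-activating factor and oxidised phospholipids, had means of -0.68 in Snail, -1.15 in Slug and 0.50 in E47. Its arrays read -1.13, 0.35, -0.82 and -1.12 in Snail, -1.55, -0.75, -1.01 and -1.27 in Slug and 1.03, -0.09, 0.74 and 0.33 in E47, so 1 Snail array and 1 E47 array lay on the other side of 0. Slug minus E47 was -1.65 (SE 0.20, adjusted p = 0.00286) and Snail minus E47 -1.18 (SE 0.20, adjusted p = 0.00904). The second missed the threshold without E47 2 (adjusted p = 0.0702). On the arrays titled Cy3 alone both missed it, with adjusted p of 0.164 for Slug minus E47 and 0.586 for Snail minus E47.

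Sphingolipid genes gave 1 called of 5 in Snail, 4 in Slug and 2 in E47, where 19.1%, 41.9% and 13.7% of all genes were called. SPTLC1, a subunit of the enzyme that starts sphingolipid synthesis, lay between -1.11 and -0.44. It was below the control on all 12 arrays, as were 5.06% of the 3657 genes with values on every array. It fell by 0.87 in Snail (SE 0.11, adjusted p = 0.00132), fell by 0.75 in Slug (adjusted p = 0.000894; 0.363 as deposited) and fell by 0.59 in E47 (adjusted p = 0.00946; 0.221 without E47 2 and 0.157 as deposited). CERS6, a ceramide synthase, fell by 1.39 in Slug (SE 0.11, adjusted p = 3.5e-05), with -1.52, -1.13, -1.49 and -1.42 on its arrays, while its values lay between -0.24 and 0.22 in Snail and between 0.09 and 0.35 in E47. SGPL1, the lyase that breaks down sphingosine 1-phosphate, averaged 1.24 in Slug (SE 0.11, adjusted p = 5.83e-05; 0.38 on the log2 scale, adjusted p = 0.405, as deposited).

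Between transfectants, 19 of 71 lipid genes passed for Snail minus Slug, 9 higher and 10 lower (of all genes 31.9% passed, 11.2% higher and 20.7% lower). For Snail minus E47, 8 of 71 passed, all lower (of all genes 12.7%, 3.14% higher and 9.58% lower). For Slug minus E47, 12 of 72 passed, 3 higher and 9 lower (of all genes 10.9%, 5.69% higher and 5.21% lower). Without Slug 2 the Snail minus Slug count was 12. The Snail minus E47 count was 5 without Snail 2, 3 without either Slug sample, 1 without E47 1 and 0 without E47 2, and the Slug minus E47 count lay between 5 and 7 without any 1 of its own samples. With the sign of Slug turned, 28 lipid genes passed for Snail minus Slug. With that of E47 turned, 11 passed for Snail minus E47 and 30 for Slug minus E47.

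The genes whose profile over the 12 arrays was most like that of SCD5, by the uncentred correlation (cosine) among 3656 other genes with all values, were SPARC, MSN, CORO1C, CAMK2N1 and MCAM, with cosines of 0.976, 0.972, 0.970, 0.968 and 0.966. SPARC, a secreted protein that binds collagen, averaged 5.36 in Snail, 3.95 in Slug and 4.69 in E47. MSN, the actin linker moesin, averaged 1.33, 1.24 and 1.19. The most opposite were NID2, FXYD3, CDH1, IL1RN and FGFBP1, with cosines of -0.981, -0.974, -0.974, -0.973 and -0.972. NID2, a basement membrane nidogen, averaged -2.01 in Snail, -1.31 in Slug and -2.19 in E47. The cosine of SCD with SCD5 was -0.822.

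Most like PPARG were AOC3, PPP1R1A, ITGA6, CDH17 and EIF3H, with cosines of 0.952, 0.946, 0.938, 0.926 and 0.925. ITGA6, the integrin alpha 6 chain of hemidesmosomes, averaged -1.54 in Snail, -0.57 in Slug and 0.59 in E47. AOC3, an amine oxidase of adipocyte and vessel surfaces, averaged -0.74, -0.49 and 0.24. The most opposite were TUBA4A, TPI1, PPIB, EIF3K and TUBA8, with cosines of -0.911, -0.905, -0.904, -0.903 and -0.898. PPIB, a cyclophilin of the endoplasmic reticulum, averaged 1.43 in Snail, 1.38 in Slug and 0.01 in E47. The cosine was 0.824 for PLA2G7 and -0.540 for SCD5. All points share the arrays and the control, and these values are descriptions with no test.

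Across the series, arrays had values for 10654 to 12982 of 13056 probes, and array medians lay between -0.06 and 0.06. Of 7 epithelial markers tested, 5 were lower in each transfectant, among them CDH1, DSP, KRT7 and KRT19. The side of CDH1 was fixed by the choice of sign, so its direction is not a finding. The 7 lay between -2.67 and -0.18 in Snail, -2.86 and 0.23 in Slug and -2.41 and -0.12 in E47. Of all genes 12.5%, 19.3% and 5.45% were lower in Snail, Slug and E47, and 6.57%, 22.6% and 8.22% higher. Of 4 fibroblast markers tested, COL1A2, FN1 and SPARC were higher in each transfectant, while PDGFRA was lower in Slug, at -0.93, and at -0.41 in Snail and 0.22 in E47 did not pass. The part of these markers in the level of SCD5 was not tested. Of 8 adipocyte markers only CD36, a fatty acid transporter, was measured, at 0.45 in Snail, -0.22 in Slug and -0.05 in E47; the Snail value passed (adjusted p = 0.0199), but not without Snail 1 (0.0671), without Snail 2 (0.0786) or as deposited (0.105). Of 4 macrophage markers tested, PTPRC was lower in Snail and in Slug and none passed in E47.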

How the data were processed

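The deposited table holds log2 ratios of the 2 channels for 13056 probes on 12 arrays; the log base of the authors' values was checked (100% of the antilogs of values below -0.5 were whole thousandths within 6e-05 on the log2 scale). How images were scanned, backgrounds corrected, ratios normalized and cells left empty is not given in the sources used here, and signal over background is not part of the values. The number of arrays limits the precision. GEO's platform annotation gave 1 human gene symbol to 8047 probes, several to 276 and none to 4733; probes with 1 symbol made 4325 genes, spots of a clone being averaged first and clones next. Signs were set as the rule for the members states.

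Displaced rows were noticed because SCD5 and duplicate spots disagreed on some arrays. Blocks of 110 rows were then matched to the means of the other arrays, without the SCD5, PPARG and CDH1 probes, using Python 3.11.15 and SciPy 1.17.1. Arrays of the same transfectant and those of the other transfectants were scored separately, and a block's own place was favoured. The table was analysed as deposited first. The put-back rows became the reported values after that comparison. For group means, tests and counts of calls, rows as deposited and displaced values left out were run as alternatives.

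A sample's value was the mean of its 2 turned arrays, both of which were needed, so a gene lacking an array was dropped from that group. limma 3.58.1 in R 4.3.3 fitted 2 samples per transfectant, all 3 groups together, with variances moderated by empirical Bayes (prior SD 0.174 with 5.73 degrees of freedom). Group means were tested against 0, and differences between groups likewise, two-sided, with Benjamini-Hochberg adjustment over all genes and a threshold of 0.05. A ratio tested against 0 leaves out the control's own spread. Block matching and fit were tested on simulated data.

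Members and lists were chosen with earlier results of these data known. Of each list, up to 5 genes of largest size past the threshold in a comparison could be named, and SCD, FADS1, FADS2 and RXRA always.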

Additional observations from a re-analysis of the deposited data

Results flagged for a closer look

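On 4 arrays of a transfectant, which come from 2 samples, 1 array stood apart from the other 3 by Dixon's criterion in 5 of 70 sets checked; chance alone gives about 1 in 20. They were FADS2 on the E47 1 array titled Cy5 (0.51), PCK1 on the Snail 1 array titled Cy5 (-0.06), PTGIS on the Slug 1 array titled Cy3 (1.68), SPTLC1 on the Snail 2 array titled Cy3 (-1.11) and, with rows as deposited, SCD5 on the E47 1 array titled Cy3 (0.43).

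PPARG lay on opposite sides of the control on every Snail and every E47 array (Snail minus E47 -1.61) and on every Slug and every E47 array (Slug minus E47 -1.11); these differences were not tested.

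Transfectants differed in limma (adjusted p under 0.05, log2 differences with the assumed signs) for a set of named lipid genes. For Snail minus Slug the differences were 0.84 for SCD, -1.21 for EP300, -0.50 for CREBBP, 1.48 for FABP3, 1.11 for PLIN2, -0.89 for UCP2, -0.81 for FABP1, -0.78 for PCK2, -0.80 for ACADVL and -0.52 for ACADM. They were also -0.83 for SREBF2, 1.09 for PLA2G4A, 0.74 for PTGES, 0.63 for PTGES3, 1.41 for CERS6, -1.19 for SGPL1 and -0.59 for UGCG. For Snail minus E47 they were -0.78 for SCD, -0.80 for HDAC3, -0.59 for EP300, -0.73 for FABP1, -0.54 for PCK2, -0.67 for ACADVL, -1.18 for PLA2G7 and -0.67 for UGCG. For Slug minus E47 they were -1.62 for SCD, -1.13 for KLF4, 0.62 for EP300, -1.69 for FABP3, -1.02 for PLIN2, -0.78 for ABCA1, 0.55 for SREBF2, -1.65 for PLA2G7, -0.85 for PLA2G4A, -1.04 for PTGES3, -1.66 for CERS6 and 1.11 for SGPL1. Of these, EP300, FABP3, FABP1 and CERS6 for Snail minus Slug and FABP3 and CERS6 for Slug minus E47 passed under every alternative that gave them a value; a turned sign was run for counts only, not for single genes.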

How the results depend on the processing

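SCD5 and PPARG kept their sides under every alternative that gives them a value. Of 84 such values, 73 moved by no more than the SD of the 2 samples, but many could not have moved further. Leaving out 1 of 2 samples shifts a mean by less than that SD, and leaving out another group's sample does not shift it. With 1 probe each and values on all arrays, medians over spots and single arrays of a sample also change nothing. The count is therefore no measure of stability. SCD5 in E47 was 2.08 with rows as deposited, 2.59 with displaced values left out, 2.62 on arrays titled Cy5, 2.75 on those titled Cy3 and 3.02 with arrays scaled to 1 spread, which also gave 1.88 in Slug and 0.50 for PPARG in E47. PPARG was -1.41 in Snail and 0.49 in E47 on arrays titled Cy5, and -0.91 and 0.40 on those titled Cy3. Leaving out a sample, SCD5 ranged from 2.11 to 3.70 in Snail, 2.13 to 2.46 in Slug and 2.66 to 2.71 in E47, and PPARG from -1.32 to -1.003, -0.78 to -0.53 and 0.43 to 0.47. Of 90 called differences of named lipid genes, 20 passed under every alternative that gave them a value; turned signs were run for counts only.

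In this order, counts below are for Snail, Slug and E47 against the control, Snail minus Slug, Snail minus E47 and Slug minus E47. All genes called numbered 725, 1724, 549, 1201, 470 and 427, and with rows as deposited 272, 885, 210, 486, 93 and 30; lipid genes called were then 4, 16, 2, 5, 1 and 2. On arrays titled Cy5 the counts were 344, 1083, 310, 586, 90 and 126, with 5, 25, 3, 10, 1 and 7 lipid genes. On arrays titled Cy3 they were 306, 1216, 297, 776, 131 and 173, with 6, 26, 2, 15, 0 and 5. Leaving out a sample gave ranges of 389 to 726, 843 to 1980, 106 to 775, 630 to 1288, 60 to 554 and 73 to 637, with 5 to 14, 18 to 39, 0 to 13, 12 to 24, 0 to 9 and 5 to 14 lipid genes; a group left with 1 sample was assumed to vary like the others. Arrays scaled to 1 spread gave 158 genes for Slug minus E47, with 7 lipid genes, and 12 lipid genes in E47. With displaced values left out, 5 lipid genes passed for Slug minus E47, and with only genes on all 12 arrays 11 passed in E47. The numbered sample as a random block gave 721 genes for Snail minus E47 and 669 for Slug minus E47, with 13 lipid genes in E47 and 13 for Snail minus E47. With the sign of E47 turned, 1596 genes and 30 lipid genes passed for Slug minus E47, and the share higher for Snail minus E47 was 42.5% in place of 24.7%; with that of Slug turned it was 47.8% for Snail minus Slug in place of 35.1%.

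Deviations of equally numbered samples correlated with r = 0.13, 0.28 and 0.09 across 3657 genes, which is not above 0.1 in every pair, and the labels give the numbers no meaning, so they were not used as pairs; with the number as a replicate block the lipid count in E47 was 11 in place of 7, and the other counts stayed within 1.5 times.

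Some directions turned. As deposited APOE in Snail was -0.24, and in Slug THRSP was 0.0545 and LIPG 0.22. FADS2 was -0.045 in E47 on arrays titled Cy3 and ranged from -0.40 to 0.11 in Snail without a sample. RXRA in Slug was -0.0178 as deposited, -0.0288 with displaced values left out and -0.0089 with the median over spots, in Snail -0.0097 on arrays titled Cy5 and in E47 -0.0624 on those titled Cy3, and without a sample it ranged from -0.12 to 0.17 in Snail and -0.0091 to 0.19 in Slug.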
